A study of Mus musculus with 38 samples.

Results

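Footprints of ribosomes recovered through Pan-TurboID from resting neurons were compared with all footprints of the same cultures, in 3 pulldown and 3 input libraries that carry the resting Pan-TurboID titles, 6 of the 38 libraries of the series. Primary cortical neurons came from CD-1 mouse embryos and were grown for 12 days. Lentiviruses carried the ligase under a doxycycline-inducible promoter, and according to the methods 4 dishes of 150 mm were pooled per sample. Both groups were resting neurons that expressed Pan-TurboID, silenced with tetrodotoxin (a sodium channel blocker) and DL-AP5 (an NMDA receptor antagonist). Both received cycloheximide, which halts elongating ribosomes, for 2 min before biotin was added for 30 min. They differed only in that the pulldown was bound to streptavidin beads, whereas the input was the 10% of the monosome fraction set aside before binding. Input and pulldown of 1 replicate number therefore share a lysate. The other libraries used below are the resting TurboID-PSD95 set and the depolarized Pan-TurboID and TurboID-PSD95 sets (55 mM KCl for 1 h). Each set has 3 inputs and 3 pulldowns, and all of them entered the same fit.

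TurboID is an engineered biotin ligase that releases a reactive form of biotin, which attaches to lysines of proteins close to the enzyme. Pan-TurboID has no localization signal, so it labels proteins throughout the neuron, and the study describes more background labelling with it than with TurboID-PSD95, also when no biotin is added. In ribosome profiling, nuclease destroys mRNA that is not covered by a ribosome, and each remaining fragment marks the place of 1 ribosome on a message. A ribosome that has only begun a coding sequence (CDS) carries a short nascent chain, part of which lies within its exit tunnel, and a ribosome further along carries a longer chain outside it.

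The 3 inputs held 30791713, 10618342 and 9299231 counted footprints and the 3 pulldowns 24161198, 11307587 and 30637088 (replicates 1, 2 and 3), of which 3914893 to 14637747 per library fell in the CDSs of the longest transcripts. Correlations of log2 CPM (counts per 1000000 counts of the library) were 0.957 to 0.971 between libraries of 1 fraction and 0.866 to 0.904 between inputs and pulldowns. Counts of replicates differed by more than sampling noise, with chi-square values per gene of 9.03 to 19.4, so each library was kept as a replicate. Summed over their marker genes, inputs had 9342 to 10099 CPM for pan-neuronal markers and 1.76 to 2.66 CPM for microglial markers, of which 8 of 9 had no count in at least 1 input. Inhibitory neuron, astrocyte and oligodendrocyte lineage markers were present in every input, at 1599 to 2850, 668 to 1136 and 290.3 to 579.5 CPM.

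Footprints shifted from the 5′ end of messages to their 3′ end in the pulldown. In the inputs, 18.2%, 21.3% and 20.5% of the counts on coding transcripts fell in the 5′ UTR, and in the pulldowns 6.98%, 9.73% and 7.24%. Every pulldown was below every input, with means of 7.98% ± 1.52 (SD, n = 3) and 20.0% ± 1.60 (SD, n = 3), and an exact two-sided permutation test gave p = 0.1. That is the smallest p that 3 libraries against 3 can give, also for the shares that follow. The test treated the libraries as separate and did not use the shared lysates. Because 5′ ends were counted without an offset to the decoded codon, a ribosome on the first codons is counted in the 5′ UTR.

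The CDS share of counts was 80.2%, 77.1% and 77.8% in the inputs and 90.7%, 88.0% and 90.5% in the pulldowns. The 3′ UTR held 1.58%, 1.58% and 1.66% of input counts and 2.33%, 2.31% and 2.26% of pulldown counts. Both shares were higher in all 3 pulldowns than in any input, by 11.4 and 0.691 percentage points, each with an exact permutation p of 0.1. The shares of a library are parts of the same total. A fall of the 5′ UTR share therefore raises the others, and these rises are not fully separate results. A UTR position of the longest transcript can be coding in another transcript of the gene, and on the transcript with the highest CDS count the 3′ UTR difference was 0.275 points.

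**Figure D1:**
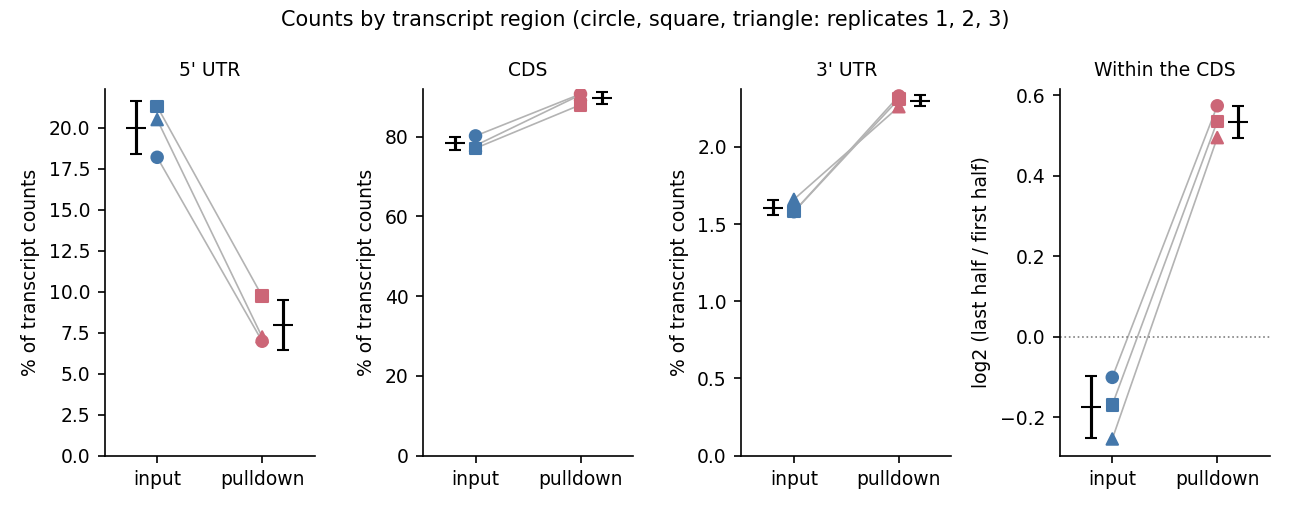
Share of counts in CDS, 5′ UTR and 3′ UTR of each gene's longest coding transcript (%), and the log2 ratio of CDS counts past over before the midpoint of the CDS, in the 3 inputs and 3 pulldowns. Lines join the libraries of 1 lysate and bars give mean ± SD (n = 3), and in each panel the 3 pulldowns lie on 1 side of the 3 inputs.

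The same shift was present inside the CDS. For genes with at least 2 coding exon segments (18732 genes), the log2 ratio of counts in segments centred past the midpoint of the CDS over those before it was -0.10, -0.17 and -0.25 in the inputs and 0.57, 0.54 and 0.49 in the pulldowns. The inputs thus had more footprints in the upstream part and the pulldowns more in the downstream part. The pulldown exceeded the input by 0.71, and the exact permutation test gave p = 0.1, the smallest possible. Between the first and the last 25% of the CDS the difference was 1.13, and as a mean over 7223 genes it was 0.82.

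Measured by distance, the difference was largest close to the start codon. Of the CDS counts, 24.0%, 25.7% and 25.2% of the inputs but 12%, 13.3% and 12.1% of the pulldowns lay in segments centred within 300 nt of the start codon. Segments centred beyond 600 nt held 58.3%, 57.7% and 56.5% of input counts and 72.8%, 72.7% and 71.9% of pulldown counts. The inputs and pulldowns did not overlap in either share.

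In bins of 200 nt over segments of at most 400 nt, the log2 ratio of pulldown over input was -1.09 ± 0.08 (SD over 3 pairs) in the first bin, which is 0.470 times the input. It was -0.42 ± 0.05 from 200 to 400 nt, 0.01 ± 0.05 from 400 to 600 nt and 0.23 ± 0.04 from 600 to 800 nt. It then was 0.42 ± 0.04 at 1000 to 1200 nt and between 0.46 and 0.52 from 1200 to 2200 nt. From 2400 nt on it stayed between 0.58 and 0.68, with 0.65 ± 0.02 at 4600 to 4800 nt. The first bin was alike in genes of every CDS length, from -1.04 in genes with a CDS of up to 300 nt to -1.16 in genes with a CDS of over 4800 nt, with values from -1.03 to -1.17 in the length classes between them.

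**Figure D2:**
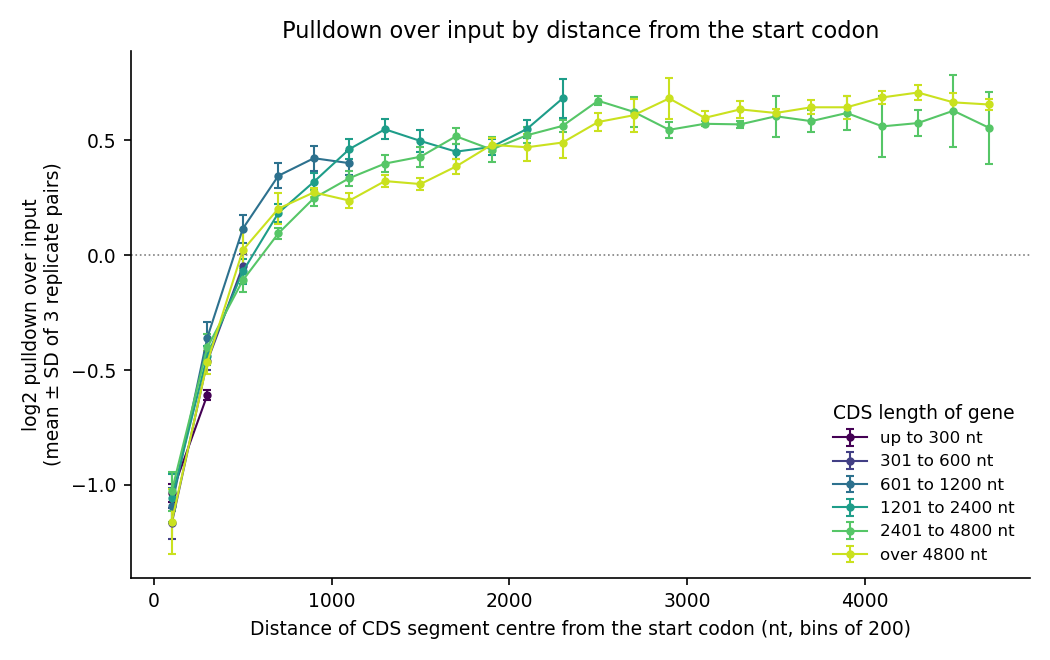
Log2 ratio of pulldown over input counts against the distance of the CDS segment's centre from the start codon (nt, bins of 200), as mean ± SD of the 3 replicate pairs, with 1 line per class of CDS length. All lines start between -1.17 and -1.03 in the first bin and, where they reach that far, cross 0 between 400 and 800 nt.

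Single genes with many exons had the same profile. Dync1h1, the heavy chain of the dynein motor that carries cargo toward the cell body (mm10 chr12:110601605-110666691), has 77 coding segments. Its first 2 segments, centred under 300 nt, held 651, 556 and 549 counts in the inputs and 313, 230 and 607 in the pulldowns, a log2 ratio of -1.33 ± 0.32 after scaling by library size. The 74 segments centred at least 600 nt from the start codon held 7325, 4466 and 3941 counts in the inputs and 20100, 9533 and 31667 in the pulldowns, a log2 ratio of 1.25 ± 0.13, and all 74 were above 0. The pulldown of this message was therefore below the input at its start and above it over nearly all the rest.

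The crossing point differed between genes. Eif4g2, an initiation factor that is knocked down in other samples of the series (mm10 chr7:111072692-111081547), had log2 ratios of -1.21 ± 0.10, -0.56 ± 0.07 and -0.08 ± 0.05 under 300 nt, from 300 to 600 nt and beyond, and the 6 of its 15 distal segments that were above 0 were the last ones, centred from 1749 nt on.

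Gene by gene, counts were summed over the CDS of the longest transcript. At a false discovery rate (FDR, Benjamini-Hochberg) of 0.05 by the quasi-likelihood test of edgeR, 1243 of 13004 genes passed (9.56%). The pulldown was higher for 588 (4.52%) and lower for 655 (5.04%), of which 259 and 414 by more than 2-fold. Each of the 3 pairs had the sign of the call for 588 of the 588 higher and 654 of the 655 lower genes. With the lysate as a block, 4274 genes passed (32.9%), 1999 higher (15.4%) and 2275 lower (17.5%), and all 1243 were among them in the same direction. Inputs and pulldowns did not overlap for 5763 genes (44.3%). Without the libraries of replicate 1, 2 or 3, the test without a block called 1, 0 and 0 genes, although 2351, 2359 and 2475 had an unadjusted p below the same 0.05, and with the block 2663, 2899 and 2793. Leaving out a single library left 5 to 179 calls, the fewest without input 2 (5) and pulldown 1 (6). The p-values measure only the spread between these samples.

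The log2 fold changes of pulldown over input (positive where the pulldown is higher) had a median of -0.04 and a 5th to 95th percentile range of -1.26 to 1.02. The 3 pairs ranked genes alike, with Spearman correlations of 0.808 to 0.856 across 7992 genes with a mean log2 CPM of at least 4. Genes are not independent replicates, so these correlations are given as descriptions only.

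CDS length went with the fold change. In genes with a CDS of up to 300 nt, the median was -0.99, with 2 higher and 102 lower of 435. The next class, up to 600 nt, had a median of -0.79, with 1 higher and 262 lower of 1498. Genes of over 600 and up to 1200 nt stood at -0.26, with 61 higher and 198 lower of 3527. Above that length the balance turned, with medians of 0.12 for up to 2400 nt (230 higher and 82 lower of 4627), 0.31 for up to 4800 nt (200 higher and 10 lower of 2270) and 0.43 for over 4800 nt (94 higher and 1 lower of 647). Across the 7992 genes, Spearman's correlation of the fold change with CDS length was 0.562. It was 0.169 with 5′ UTR length and 0.123 with 3′ UTR length, and 0.096 and 0.0325 given CDS length. Over the 7886 genes with a sequence, it was -0.192 with CDS GC content and -0.151 with the share of lysine codons (-0.155 and -0.139 given CDS length).

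The class medians were nearly the same when only part of the CDS was counted. Counting segments centred under 300 nt, with the library sizes and scaling of the whole CDS, gave class medians between -0.99 and -0.90 from the shortest to the longest genes. Segments centred at least 600 nt away gave 0.41, 0.47, 0.51 and 0.53 in the 4 classes above 600 nt. The near segments were of at most 400 nt. Far segments were chosen by centre alone, so a long one can reach back toward the start codon. Correlation with CDS length was then 0.0442 over 6561 genes near the start codon and 0.0714 over 6547 genes far from it. In 5349 genes measured in both stretches, the far value was above the near value in 96.1%, by a median of 1.43, and the near and far values correlated with each other at 0.109. Distal values spread more widely over genes, with quartiles of -0.02 and 0.93 against -1.23 and -0.65.

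**Figure D3:**
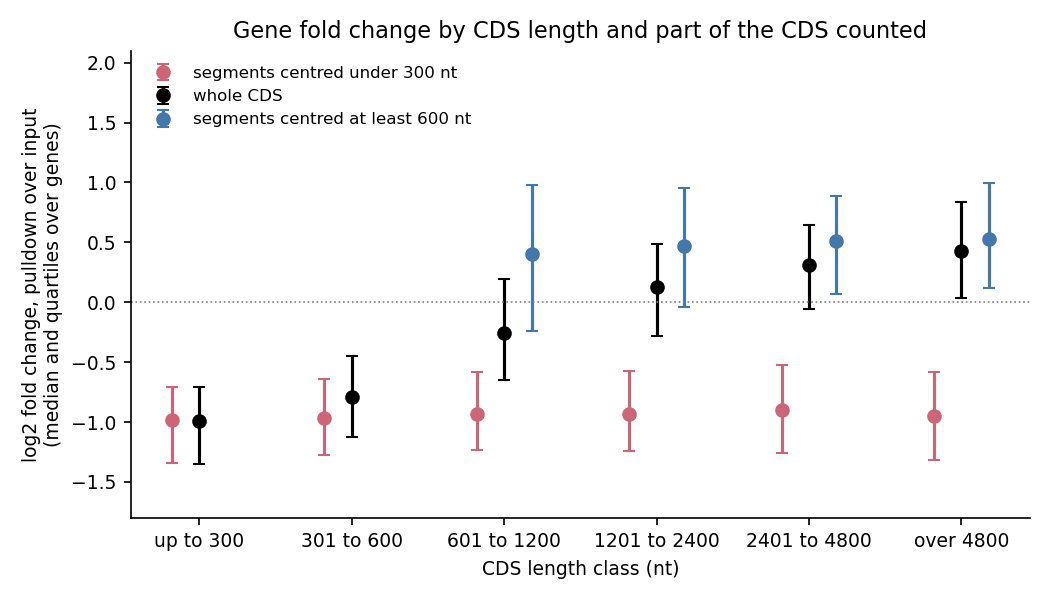
Log2 fold change of pulldown over input per gene (median and quartiles over genes) by class of CDS length (nt), for the whole CDS and for segments centred under 300 nt or at least 600 nt from the start codon. Whole-CDS medians go from -0.99 to 0.43, near medians stay between -0.99 and -0.90, and far medians stay between 0.41 and 0.53.

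In a test of the distal segments alone, scaled by their own totals so that the median gene stood at 0.04, 424 of 9568 genes passed (4.43%), 217 higher (2.27%) and 207 lower (2.16%). With the lysate as a block 2738 passed (28.6%), 1367 higher (14.3%) and 1371 lower (14.3%). In the proximal segments, likewise scaled, 18 of 9169 genes passed (0.196%), 13 higher (0.142%) and 5 lower (0.0545%), and with the block 139 (1.52%), 82 higher (0.894%) and 57 lower (0.622%). With the trend with CDS length removed from the whole-CDS counts, 387 genes passed (2.98%), 199 higher (1.53%) and 188 lower (1.45%), of which 316 also passed with it.

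Among the genes with the smallest p and a higher pulldown, Psmc5 encodes an ATPase of the proteasome's regulatory particle (mm10 chr11:106256191-106262580). It had 130, 143 and 123 CPM in the inputs and 248, 290 and 361 CPM in the pulldowns. Its log2 fold change was 1.18 ± 0.20 (SE; adjusted p = 0.01), and it was 1.58 over its distal segments and -0.58 over its proximal ones. The other 5 ATPases of the ring did not pass the test.

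Mest, an imprinted gene that encodes a hydrolase-like membrane protein (mm10 chr6:30740297-30747169), had 170, 135 and 143 CPM in the inputs and 381, 378 and 402 CPM in the pulldowns, a log2 fold change of 1.37 ± 0.24 (adjusted p = 0.01). Gnb1, a G protein β subunit (mm10 chr4:155527453-155557277), had 418, 432 and 453 CPM against 848, 840 and 868 CPM, a log2 fold change of 0.97 ± 0.18 (adjusted p = 0.0122). For both, the 3 pulldowns were far above the 3 inputs and close to each other, and their CDSs of 1029 and 1023 nt lie in a length class with a median of -0.26. Rundc3a, Agpat3, Rab3gap2, Trank1, Cebpz, Myo9b and Washc5 completed the 10, with log2 fold changes of 1.31, 1.19, 1.32, 1.38, 1.26, 1.52 and 1.47.

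Acaca, acetyl-CoA carboxylase (mm10 chr11:84195464-84399683), was among the 5 genes with the largest higher fold changes at a mean log2 CPM of at least 4. It had 78.2, 70.1 and 76.6 CPM in the inputs and 488, 184 and 208 CPM in the pulldowns, with pulldown 1 well above the other two. Its log2 fold change was 1.97 ± 0.46 (adjusted p = 0.021), and 1.40 without pulldown 1, where it no longer passed (adjusted p = 0.098). Without both libraries of replicate 1, 2 or 3 it did not pass either (adjusted p = 0.184, 0.171 and 0.156), and of the 6 fits that left out a single library only the one without pulldown 2 kept the call (adjusted p = 0.0449). With the lysate as a block the adjusted p was 8.13e-05, and 0.00137 in the blocked fit without the replicate 1 pair. The other 4 were Snhg11 (2.65), an RNA gene that hosts small nucleolar RNAs and whose annotated CDS has 264 nt, Tmtc3 (2.04), Stk36 (1.75) and Stxbp2 (1.69). Snhg11 had 7.90, 15 and 10.6 CPM in the inputs and 89.3, 53.0 and 66.2 CPM in the pulldowns, and of the 435 genes with a CDS of up to 300 nt it was 1 of the 2 called higher (3 with the block).

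Among the lowest p-values with a lower pulldown, Hmgb2, a chromatin protein of dividing cells (mm10 chr8:57512599-57514127), had 14.3, 21.5 and 16.3 CPM in the inputs and 4.38, 1.89 and 3.09 CPM in the pulldowns. The log2 fold change was -2.42 ± 0.37 (adjusted p = 0.00788). Tmem242, a small membrane protein (mm10 chr17:5411369-5440217), had 38.0, 40.5 and 85.2 CPM against 10.1, 15.9 and 12.8 CPM, and fell by 2.08 ± 0.35 on the log2 scale (adjusted p = 0.01). Cplx1, complexin 1, which clamps and triggers vesicle fusion (mm10 chr5:108520129-108548536), had 133, 198 and 164 CPM against 62.0, 60.9 and 54.3 CPM, a log2 fold change of -1.48 ± 0.28 (adjusted p = 0.0154). None of these 3 has a CDS longer than 633 nt.

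Maf, a transcription factor of interneuron development (mm10 chr8:115705751-115706863 for its single coding segment), had 120, 151 and 114 CPM in the inputs and 47.4, 60.9 and 41.2 CPM in the pulldowns, a log2 fold change of -1.37 ± 0.26 (adjusted p = 0.0139). Lgalsl, Hist2h2bb, Ndufa12, Ttc9, Actc1 and Gpx1 also were among the 10, at -1.52, -1.63, -1.28, -1.82, -1.90 and -1.65. The 5 lower genes with the largest fold changes were taken among those with a mean log2 CPM of at least 4. Of these 5, 4 were histones, Hist1h2ai (-2.35), Hist1h2ah (-2.29), Hist1h3h (-2.19) and Hist2h3b (-2.16), and the other was Tbca (-2.56), a tubulin folding cofactor. The longest Tbca transcript carries a CDS of only 111 nt, and with the transcript of the highest CDS count, 327 nt, the value was -1.79 (adjusted p = 0.0166).

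**Figure D4:**
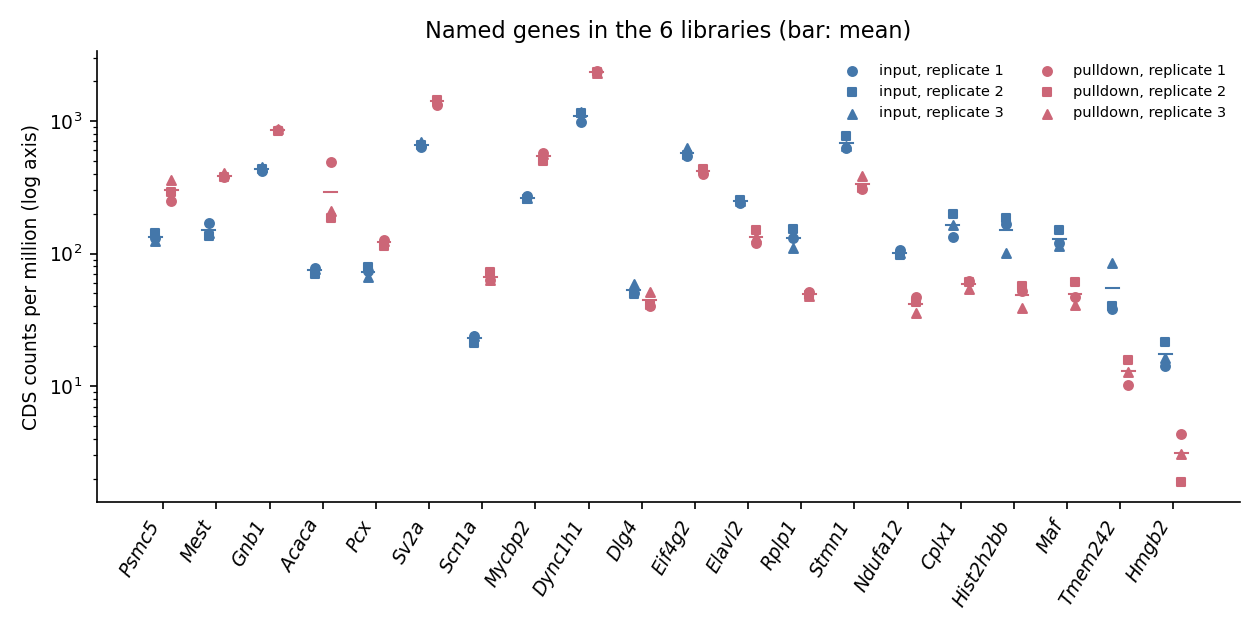
CDS counts in CPM (log axis) of 20 genes named in the text in each of the 3 inputs and 3 pulldowns, with the mean as a bar. Pulldowns of Psmc5 to Dync1h1 lie above their inputs, those of Elavl2 to Hmgb2 lie below, and Dlg4 has overlapping ranges (40.5 to 51.5 CPM against 49.8 to 58.8 CPM).

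The length of the annotated CDS entered these values in another way. For 341 of the genes tested, the longest transcript had a CDS under 50% as long as that of the transcript with the highest count. Their median log2 fold change was -0.67 with the longest transcript, with 1 higher and 25 lower, and 0.07 with the transcript of the highest count, with 20 higher and 12 lower. Psmd2, a scaffold of the proteasome's base, was an example, with 183 nt and a value of -1.49 in the first case and 2727 nt and 0.36 in the second (adjusted p = 0.247, and 0.00784 with the block).

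Gene lists were read against all genes tested, of which 4.52% were higher and 5.04% lower and whose median log2 fold changes were -0.04 for the whole CDS, -0.94 near the start codon and 0.47 far from it. Of the 43 lists, 23 had a whole-CDS median above 0. Since CDS length went with the fold change, the counts with the length trend removed are given as well where they differ, and there 1.53% of all genes were higher and 1.45% lower.

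The lists of the translation machinery differed, with the lower calls mostly among ribosomal proteins. Cytosolic ribosomal proteins, the shared building blocks of the ribosome, had a median of -0.93, and 0 of 77 were higher and 33 lower (64 lower with the block), but 1 lower with the length trend removed. Rplp1, a protein of the ribosomal stalk, had 131, 152 and 110.3 CPM in the inputs and 51.4, 49.0 and 47.6 CPM in the pulldowns, a log2 fold change of -1.41 ± 0.30 (adjusted p = 0.019). Their CDSs are short, and the median near the start codon was -1.07. In the 13 with distal segments that passed the filter the median was 0.09, below the 0.47 of all genes. Reads of near-identical ribosomal protein copies may be split by the counting, so these genes are uncertain.

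The other lists of the machinery had calls in both directions with the block. Of 22 cytosolic aminoacyl-tRNA synthetases, which charge tRNAs, 2 were higher (Vars 1.01 and Lars 1.01) and 0 lower (7 and 2 with the block, 0 and 0 with the length trend removed), and the median was 0.12. Among 13 elongation and termination factors (3 higher and 2 lower with the block, 0 and 0 with the length trend removed), Gcn1l1, which senses colliding ribosomes, rose by 0.99 ± 0.28 (adjusted p = 0.0326) and Eef1b2, an exchange factor of elongation factor 1, fell by 0.89 ± 0.26 (adjusted p = 0.0387). Initiation factors, 40 in number, had a median of -0.27, with 1 higher (Eif3l 0.72) and 1 lower (Eif4ebp1 -1.56, an inhibitor of cap-dependent initiation). The counts were 4 and 15 under the block and 0 and 1 with the length trend removed. Eif4g2 itself had 540, 550 and 625 CPM in the inputs and 398, 431 and 434 CPM in the pulldowns. All its pulldowns were below all its inputs, but the log2 fold change of -0.44 ± 0.19 did not pass (adjusted p = 0.127), whereas with the block it did (adjusted p = 0.00473).

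The lists of mitochondrial proteins made in the cytosol had medians below that of all genes. Of 37 nuclear-encoded complex I subunits 0 were higher and 15 lower (3 and 30 with the block), with a median of -0.85, and of 40 subunits of complexes II to V 1 was higher and 11 lower (1 and 32), also with a median of -0.85. Mitochondrial ribosomal proteins had a median of -0.61, with 0 higher and 16 lower of 78 (0 and 44). With the length trend removed, 1 complex I subunit was lower and 0 members of the other 2 lists passed, and genes of the same length classes had medians of -0.64, -0.67 and -0.53. The member called higher without the block, Sdha, the flavoprotein of complex II with a CDS of 1995 nt, had 291, 310.5 and 307 CPM in the inputs and 477, 493 and 507 CPM in the pulldowns (0.70 ± 0.21, adjusted p = 0.0413).

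In the few members with distal segments, the medians there were positive. They were 1.01 for 9 complex I subunits, 1.04 for 9 subunits of complexes II to V and 0.69 for 25 mitochondrial ribosomal proteins, whose lower quartile was -0.12, against 0.47 for all genes. Ndufv2, a complex I subunit, had 328, 393 and 494 CPM in the inputs and 186, 195 and 203 CPM in the pulldowns over its whole CDS of 747 nt (-1.06 ± 0.23, adjusted p = 0.019), and its log2 ratio was -1.57 under 300 nt and 0.75 past 600 nt.

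The 13 subunits encoded by the mitochondrial genome, which mitochondrial ribosomes translate inside the organelle, had a median of 0.69. None of the 13 passed the test (0 higher and 0 lower), and 9 higher and 1 lower passed with the block. mt-Co1, the catalytic subunit of cytochrome oxidase, had the largest value in the list, 1.01 (adjusted p = 0.16), and mt-Atp8, the lower one under the block, -0.90.

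Histones were the lowest of the lists. Of 61 replication-dependent histones, whose messages lack a poly(A) tail and are made in dividing cells, 36 were lower and 0 higher, all 61 were lower with the block, and 9 were lower with the length trend removed. Their log2 fold changes ran from -2.77 to -1.06 with a median of -1.66, below the -0.99 and -0.79 of the 2 shortest length classes. Hist2h2bb, a core histone of 381 nt, had 167, 186 and 102 CPM in the inputs and 52.0, 56.6 and 38.5 CPM in the pulldowns (-1.63 ± 0.30, adjusted p = 0.0138). Near-identical histone copies can share reads, so single members are uncertain. Of 18 replication-independent histones and HMG proteins 7 were lower and 0 higher (11 and 0 with the block, 2 and 0 with the length trend removed, median -1.23), among them H2afz at -1.32.

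Markers of dividing progenitors summed to 344.6 to 496.1 CPM in the inputs and 208 to 329.6 CPM in the pulldowns, with 0 higher and 2 lower of 8 (1 and 3 with the block). Not all members fell, and Top2a had 76.2, 47.1 and 40.2 CPM in the inputs and 123, 103 and 68.9 CPM in the pulldowns. Whether the share of dividing cells moves the histone values was not tested. In these bulk samples, fewer labelled cells of a type and fewer labelled ribosomes per cell cannot be told apart.

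At the other end, giant ubiquitin ligases, which mark proteins for breakdown and have a median CDS of 13197 nt, had a median of 0.96, with 6 higher and 0 lower of 14 and all 14 higher with the block. With the length trend removed 0 of them passed, and in the distal test 0 passed without the block and 12 were higher with it. Mycbp2, a ligase of axon and synapse growth, had 271, 256 and 263 CPM in the inputs and 576, 496 and 559 CPM in the pulldowns (1.04 ± 0.30, adjusted p = 0.037). Voltage-gated sodium and calcium channels, which open on depolarization, had 8 higher and 0 lower of 22 (13 and 0 with the block, 3 and 0 with the length trend removed) and a median of 0.89. Scn1a, a pore subunit, had 23.7, 21.2 and 23.9 CPM against 63.2, 72.5 and 63.7 CPM (1.53 ± 0.32, adjusted p = 0.019), and Scn8a, Cacna1a, Cacna1e and Cacna1i, also pores, rose by 1.20, 1.24, 1.28 and 1.38. The short auxiliary subunits of the list, such as Scn2b (-0.32), Scn3b (0.29), Cacnb1 (-0.15) and Cacnb3 (0.05), did not pass.

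Potassium channels had 6 higher and 1 lower of 41 (14 and 2 with the block, 2 and 0 with the length trend removed) and a median of 0.59. The lower one was Kcnip3 (-1.76), a cytosolic calcium-binding partner of channels rather than a pore. For the sodium pump and chloride cotransporters, 2 of 9 were higher and 0 lower, and 8 were higher with the block, but 0 with the length trend removed.

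Synaptic messages did not move as 1 group. Vesicle proteins, which load and dock transmitter vesicles, had 6 higher and 0 lower of 21 (11 and 2 with the block, 5 and 0 with the length trend removed) and a median of 0.38. Sv2a, a glycoprotein of the vesicle membrane, had 631, 654 and 698 CPM against 1315, 1442.5 and 1446 CPM (1.08 ± 0.26, adjusted p = 0.0207). SNAREs and complexins, the small proteins of membrane fusion, had 0 higher and 1 lower of 12, Cplx1 (2 and 7 with the block), with a median of -0.48. AMPA receptor subunits and their auxiliary proteins had 1 higher (Gria4 0.91) and 0 lower of 14, NMDA and kainate receptor subunits 0 of 10 in either direction, with 7 and 5 higher under the block, 0 and 0 with the length trend removed, and medians of 0.61 and 0.60. Postsynaptic scaffolds stood near all genes at -0.05, with Cyfip2 (1.00) and Camk2a (0.90) higher and Camk2n1, the small inhibitor of CaMKII, lower (-1.45), and with 4 higher and 2 lower of 28 under the block and 0 and 1 with the length trend removed.

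Enzymes of N-glycosylation, which work in the endoplasmic reticulum, had 6 higher and 2 lower of 29 (15 and 4 with the block, 4 and 1 with the length trend removed) and a median of 0.36. Stt3b, a catalytic subunit of the oligosaccharyltransferase, had 131, 142 and 150 CPM in the inputs and 320, 294 and 308 CPM in the pulldowns (1.12 ± 0.27, adjusted p = 0.0208). One of the 2 lower members, Alg5, was counted on a CDS of 255 nt and had a value of 0.13 with the transcript of the highest count. Secreted granins and neuropeptides went the other way, with 0 higher and 2 lower of 22 (1 and 14 with the block). Chga, chromogranin A, had 614, 789 and 733 CPM against 398, 495 and 475 CPM (-0.64 ± 0.20, adjusted p = 0.0429).

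In some lists the distal value stayed below that of all genes. The mRNA transport proteins, RNA-binding proteins such as FMRP and Staufen, had 0 higher and 7 lower of 29 (0 and 18 with the block, 0 and 9 with the length trend removed), a whole-CDS median of -0.53 and a distal median of -0.26 in 26 members against 0.47. In the test of distal segments alone 7 were lower and 0 higher, and 18 were lower with the block, beside the 2.16% and 14.3% of all genes. Elavl2, a neuronal protein that binds AU-rich messages (mm10 chr4:91253240-91311644), had 241, 252 and 249 CPM in the inputs and 121, 149 and 133 CPM in the pulldowns. Its log2 fold change was -0.88 ± 0.21 (adjusted p = 0.021), with -1.30 under 300 nt and -0.78 past 600 nt. Hnrnpa2b1, which binds transported messages, had -0.94 over the whole CDS and -1.02 in the distal part. Granins and neuropeptides (-0.42 in 11 members), immediate early genes (-0.03 in 12) and spliceosomal Sm and LSm proteins (-0.21 in 6) likewise had distal medians below that of all genes. In genes with few, long coding segments, distal counts can include footprints nearer the start codon. Whether this lowers the distal medians of these lists was not tested. Egr1, an immediate early transcription factor, had 141, 182 and 218 CPM against 59.7, 71.5 and 126 CPM (-1.07 ± 0.32, adjusted p = 0.0403), with -0.87 in segments centred at least 600 nt away.

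Chaperones were divided. Of 31 cytosolic and endoplasmic reticulum chaperones 2 were higher and 3 lower (6 and 10 with the block, 0 and 3 with the length trend removed), and the higher ones, Tcp1 (0.77) and Cct3 (0.62), are subunits of the ring-shaped chaperonin that folds actin and tubulin. Pdia3, a disulphide isomerase of the endoplasmic reticulum, had 955, 961 and 1123 CPM in the inputs and 589, 627 and 657 CPM in the pulldowns (-0.70 ± 0.19, adjusted p = 0.0288), and Dnaja1, a co-chaperone of heat shock protein 70, was at -0.95. In the distal test 1 member was higher and 7 lower (3 and 13 with the block).

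The proteasome core particle, the barrel that cleaves proteins, stood near all genes over the whole CDS (-0.04, with 1 higher and 1 lower of 14, 2 and 3 with the block, and 1 and 0 with the length trend removed). The lower one, Psmb1, was at -0.88 and did not pass on the transcript of the highest count (-0.27, adjusted p = 0.277). Over distal segments the median of the list was 1.31 in 11 members, the highest of the lists plotted, with 3 higher and 0 lower in the distal test and 8 higher with the block.

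Proteins of the cytoskeleton followed no single direction. All 13 tubulins had positive values (median 0.45), of which 0 passed and 9 were higher with the block. Actin regulators had 0 higher and 5 lower of 31 (5 and 17 with the block, 0 and 0 with the length trend removed), among them Tmsb4x, thymosin β4, which binds actin monomers and is encoded by 153 nt, with 1295, 1236 and 1551 CPM in the inputs and 652, 506 and 507 CPM in the pulldowns (-1.29 ± 0.32, adjusted p = 0.0215). Stmn1, stathmin, which binds tubulin dimers, fell by 1.02 ± 0.26 (adjusted p = 0.0255). Motors had 2 higher, Dync1h1 (1.09) and Kif3a (0.67), and 3 lower of 34 (14 and 7 with the block, 0 and 0 with the length trend removed), among them the dynein light chains Dynll1 (-1.24) and Dynll2 (-1.28), which are encoded by 270 nt each.

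Of the remaining lists, nuclear pore proteins and transport receptors had 6 higher and 0 lower of 45 (19 and 5 with the block, 0 and 0 with the length trend removed, median 0.33), among them Nup188, a scaffold of the pore, with 40.1, 39.2 and 47.7 CPM in the inputs and 98.6, 96.1 and 101 CPM in the pulldowns (1.22 ± 0.35, adjusted p = 0.0344). Protocadherins, adhesion proteins that give neurons their surface identity, had 0 of 63 in either direction, but 35 higher and 1 lower with the block (median 0.42). An exon shared by members would be counted in each of them, so these calls may not be separate. In the distal test 0 of the protocadherins were higher and 1 lower (0 and 10 with the block), and their distal median was 0.45 against 0.47 for all genes. However, 0 members had values under 300 nt, and the distal median was close to that of the whole CDS. A long segment that includes the start of the CDS would be counted as distal, so these values may not leave it out. Neurexins, neuroligins and other synaptic adhesion proteins had 1 higher and 0 lower of 19 (12 and 0 with the block, 0 and 0 with the length trend removed, median 0.49). In the distal test 0 of 18 passed in either direction, and 2 were higher and 4 lower with the block. Glycolytic enzymes had 2 higher, Pfkp (1.00) and Ldha (0.85), and 0 lower of 17 (5 and 2 with the block, 1 and 0 with the length trend removed). Rab GTPases, switches of membrane traffic, had 0 of 32 in either direction (3 higher and 2 lower with the block, 2 and 0 with the length trend removed) and a median of 0.00.

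**Figure D5:**
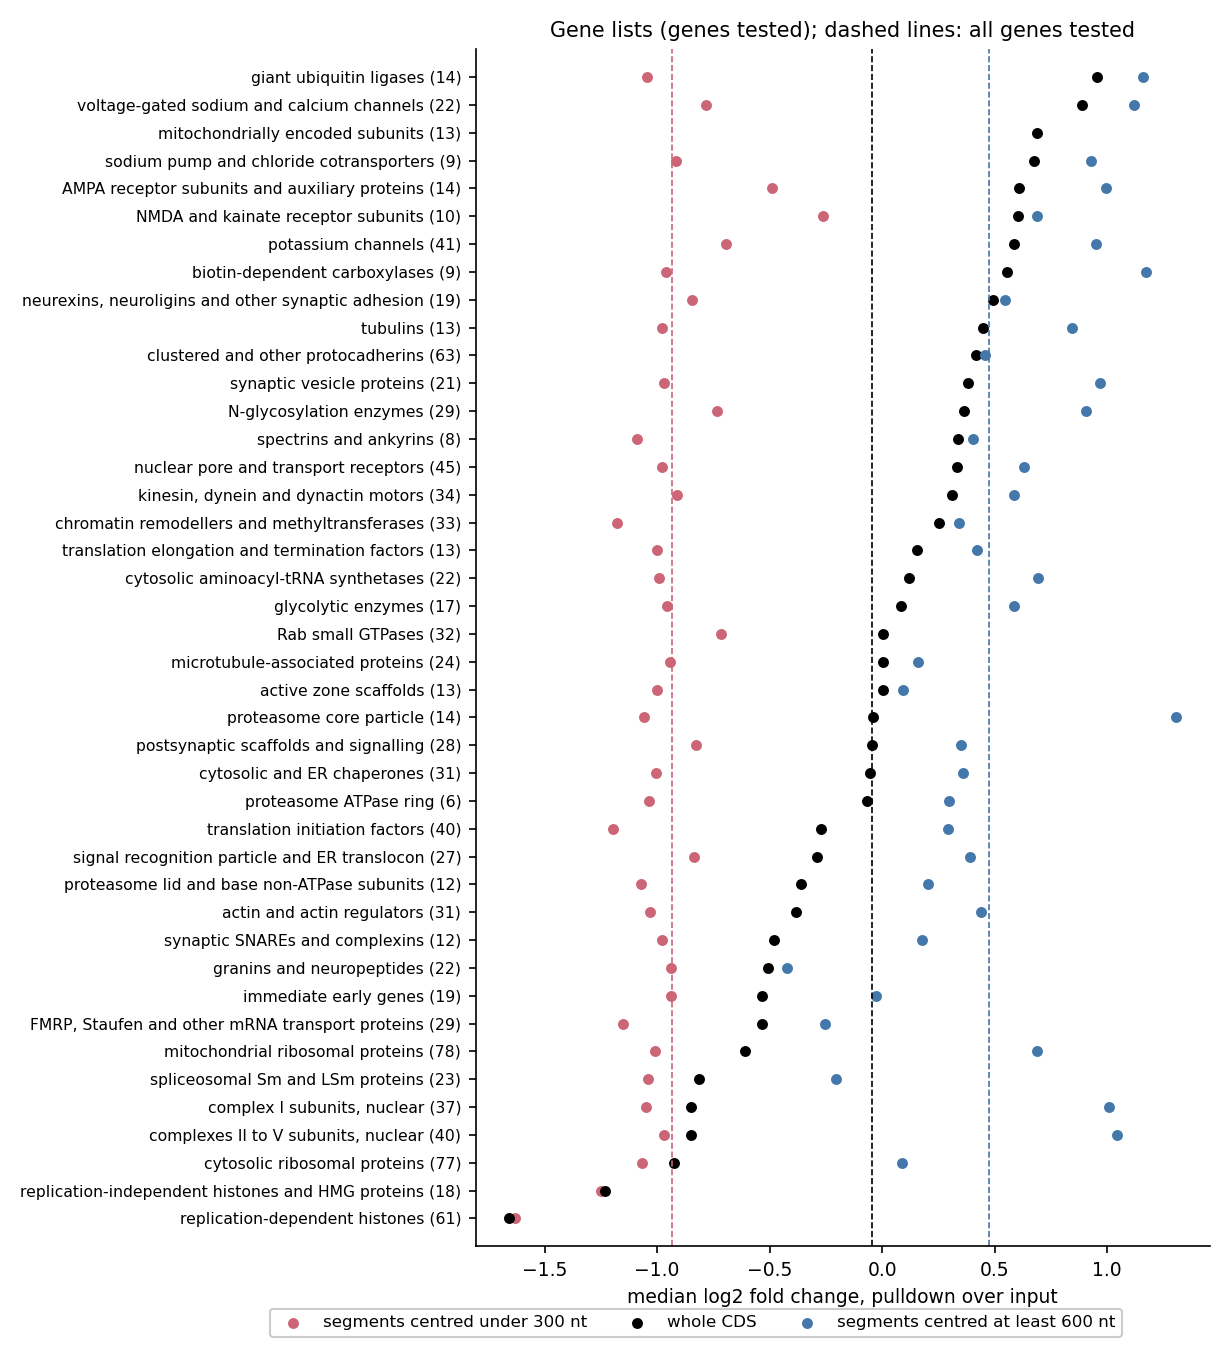
Median log2 fold change of pulldown over input in each gene list (number of genes tested in brackets) for the whole CDS and for segments centred under 300 nt or at least 600 nt from the start codon, with dashed lines at the medians of all genes tested (-0.04, -0.94 and 0.47) and no point where few genes of a list had segments in that stretch. Whole-CDS medians go from -1.66 for replication-dependent histones to 0.96 for giant ubiquitin ligases.

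Carboxylases carry biotin as a cofactor and so can bind streptavidin without labelling by TurboID. Of 9 genes in the list (the carboxylases with the enzymes that attach and release biotin) 2 were higher and 0 lower, 4 were higher with the block, and 1 was higher with the length trend removed. Besides Acaca, Pcx, pyruvate carboxylase, had 73.4, 78.8 and 66.3 CPM in the inputs and 126, 113 and 125 CPM in the pulldowns (0.74 ± 0.21, adjusted p = 0.0341). Pcca, Pccb, Mccc1 and Mccc2, the subunits of the mitochondrial propionyl-CoA and methylcrotonyl-CoA carboxylases, had values of 0.55, 0.21, 0.24 and 0.62 and did not pass (Mccc1 is counted on 768 nt and had 0.82 on the transcript of the highest count), although Pcca (adjusted p = 0.0204) and Mccc2 (adjusted p = 0.0196) did with the block. Acacb, a second acetyl-CoA carboxylase, was near the limit of detection, with 0.838, 0 and 0.754 CPM against 6.57, 1.42 and 1.26 CPM (2.44 ± 1.08, adjusted p = 0.132). Hlcs, which attaches biotin to carboxylases, was at 0.03 and Btd, which releases it, at -0.48, and neither passed. The distal median of the 9 was 1.17.

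Markers of cell types were checked as lists too. Pan-neuronal markers summed to 8525 to 9765 CPM in the pulldowns, within or below the range of the inputs, with 0 higher and 1 lower of 10 (1 and 4 with the block). Astrocyte markers summed to 803 to 1288 CPM, with 0 higher and 1 lower of 8 (2 and 2 with the block). Excitatory markers summed to 1561 to 1881 CPM in the inputs and 1694 to 1946 CPM in the pulldowns, with a list median of -0.15. Of 8 excitatory markers 3 were higher and 0 lower (3 and 2 with the block), the vesicular glutamate transporters Slc17a7 (0.78) and Slc17a6 (1.08) and Camk2a. The transcription factors Neurod6, Neurod2 and Bcl11b were lower in all 3 pairs. Inhibitory markers summed to 1644 to 2744 CPM in the pulldowns, within the range of the inputs. Of 8 inhibitory markers 3 were lower and 0 higher (5 and 2 with the block), the transcription factors Dlx1 (-1.61) and Dlx2 (-0.99) and the neuropeptide Sst, while Gad1 (0.49), Gad2 (0.24) and Slc32a1 (0.61), which make and load GABA, had positive values that did not pass. Sst had 759, 1121 and 502 CPM in the inputs and 302, 494 and 188 CPM in the pulldowns (-1.28 ± 0.40, adjusted p = 0.0476, and 0.0512 in the fit that uses the transcript of the highest count for every gene), and the lowest input, of replicate 3, was close to the highest pulldown, of replicate 2. Oligodendrocyte lineage markers summed to 151 to 390 CPM in the pulldowns, with 0 higher and 0 lower of 8 (0 and 3 with the block). Endothelial and mural markers summed to 240 to 576 CPM in the inputs and 238 to 312 CPM in the pulldowns, with 0 higher and 0 lower of 4. Most of each sum came from Acta2, Col1a1 and Col1a2. The endothelial genes Cldn5, Pecam1, Cdh5 and Flt1 had at most 1.01 CPM in any input.

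The enrichment was then compared with the 2 most similar sets, neither of which shares a library with it. Across the 7992 genes, its fold changes correlated at 0.913 with those of depolarized Pan-TurboID and 0.936 with those of resting TurboID-PSD95 (Spearman). By edgeR's test of the difference of differences, 0 of 13004 genes (0.0%) differed from depolarized Pan-TurboID, with 124 at an unadjusted p below 0.05. With the lysate as a block the count was 0, with 329 below that p. Against resting TurboID-PSD95 0 genes passed (0.0%), with 96 at an unadjusted p below 0.05, and 1 with the block (417 below that p). DESeq2 called 0 genes in both comparisons. Among genes with a mean log2 CPM of at least 4, only 13 and 17 had differences of more than 1 on the log2 scale, and a p that misses the threshold does not show that the enrichments were equal.

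The gene that differed from resting TurboID-PSD95 with the block was Dlg4, which encodes PSD95, whose elements are part of the ligase construct in those libraries (mm10 chr11:70018920-70031833). In the Pan-TurboID libraries Dlg4 had 50.7, 49.8 and 58.8 CPM in the inputs and 40.5, 41.2 and 51.5 CPM in the pulldowns, and its log2 fold change of -0.25 ± 0.62 did not pass (adjusted p = 0.824). In the TurboID-PSD95 libraries it had 122, 152 and 190.4 CPM in the inputs and 1504, 1419 and 3092 CPM in the pulldowns. The difference was -3.89 with the block (adjusted p = 6.11e-05) and -3.95 without it (adjusted p = 1.00). Counts of the construct's own message and of the neurons' Dlg4 cannot be told apart in these files.

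The gene with the smallest p for the difference from depolarized Pan-TurboID was Col24a1, a fibrillar collagen, with counts of 0, 0 and 0 in the resting inputs and 32, 4 and 43 in the resting pulldowns. With the inputs set to 3 counts over the 3 libraries, the pulldown was 16.3-fold higher, a value that leaves out the spread between replicates. In the depolarized libraries its counts were 0, 21 and 2 in the inputs and 0, 5 and 0 in the pulldowns, and the difference did not pass (adjusted p = 1.00).

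The downstream shift within the CDS was present in every set of the KCl experiment. The log2 ratio of counts past over before the midpoint rose from input to pulldown by 0.67, 0.70 and 0.75 in the 3 resting Pan-TurboID pairs, by 0.77, 0.77 and 0.88 in depolarized Pan-TurboID and by 0.80, 0.83 and 0.95 in resting TurboID-PSD95. Both other sets were above all 3 resting Pan-TurboID pairs, with exact permutation p = 0.1 each, the smallest that 3 pairs against 3 can give. In depolarized TurboID-PSD95 the rises were 1.11, 0.63 and 1.08, which overlap with those of resting Pan-TurboID (exact permutation p = 0.4).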

How the data were processed

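PL-Ribo-seq counts were analysed for the 6 resting Pan-TurboID libraries within the 24 libraries of the KCl experiment. According to the methods and the file headers, the authors trimmed reads (Rfastp), separated barcodes, cut 6-nt molecular identifiers, aligned to mm10 (named in the submitters' processing notes) with Rsubread, removed rRNA and duplicates, and counted 5′ ends of alignments of 25 to 100 nt in exon segments with plastid. The authors' deposited counts give whole numbers for each exon segment, and the deposited RPKM values equalled them after scaling by length and library total in all 15207066 segment values checked (36 files). Use of strand and of reads with several alignments is not given in the sources used here, so overlapping genes and near-identical copies are uncertain. Removing duplicates can flatten highly covered positions.

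Counts were summed over the CDS of 1 transcript per gene, the longest by exon length, and 66750 of 67238 coding transcripts (99.3%) were named through GENCODE M21, which gave 22443 genes. edgeR 4.0.16 (R 4.3.3) fitted 8 group means to the 24 libraries (TMM, filterByExpr, robust quasi-likelihood F test, Benjamini-Hochberg). The shared fit sets the spread of these 6 libraries by all 24, which differed in depth. The methods name edgeR's likelihood ratio test, used here as an alternative beside DESeq2 1.42.0. The scripts were tested on simulated data. Shares and positions were compared between inputs and pulldowns with exact permutation tests on 1 value per library, which did not use the pairing by lysate. Gene lists are described by counts and medians. Log2 ratios of bins and segments used the effective library sizes of the CDS fit. Intervals and tests cover these libraries only.

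Replicate numbers pair input and pulldown, since both come from 1 lysate. Deviations from the group means correlated at 0.508, 0.343 and 0.536 for equal numbers and at -0.414 to -0.103 for unequal ones (7992 genes). Deviations cancel out within a group, so positive values for equal numbers make those for unequal numbers negative on average.

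Genes named were the 10 with the smallest p and the 5 with the largest fold change in each direction among those that passed and moved alike in 3 pairs (the latter with a mean log2 CPM of at least 4), all biotin-dependent carboxylases, Dlg4, Eif4g2, up to 2 members per list and direction, and the gene with the smallest p for each difference between sets. Further members are given as values. The comparison, members and lists were chosen with earlier results of these data known. Protein sequences were not used here. Some genes that the naming rule selects are not reported here.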

Additional observations from a re-analysis of the deposited data

Results flagged for a closer look

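The effect of the pulldown on Dlg4 differed between the resting Pan-TurboID and the resting TurboID-PSD95 libraries. Averaged over the 3 pairs, the log2 ratio of pulldown over input was lower with Pan-TurboID (difference -3.88), and the test of the difference passed with the lysate as a block (adjusted p = 6.11e-05, edgeR's quasi-likelihood test). Dlg4 encodes PSD95, part of the TurboID-PSD95 construct.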

How the results depend on the processing

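The 1243 calls became 4274 with the replicate block, 1902 with edgeR's likelihood ratio test, 2132 with DESeq2, 387 with the CDS length trend removed (2993 with the block as well), 3983 in a fit of the 6 libraries alone (5820 with the block) and 0 to 179 when 1 replicate or library was left out. Fits chosen after seeing the data gave 4337 calls for the transcript with the highest CDS count with the block, 2663, 2899 and 2793 without 1 replicate pair with the block, and 424 for segments at least 600 nt from the start codon (2738 with the block). Scaling by RLE factors and the transcript with the highest count without the block left the number of calls within 1.5 times, as did dropping the filter on low counts. The difference from resting TurboID-PSD95 went from 0 calls to 1 with the block, with or without the length trend, and the difference from depolarized Pan-TurboID had 0 under every alternative run.

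The median of the longest length class minus that of the shortest was 1.42 and became 1.46 with the replicate block, 1.34 without the filter, 1.47 in the 6 libraries with the block, 1.46 for the highest-count transcript with the block, 1.43 to 1.54 with a replicate or library left out (1.48, 1.49 and 1.5 with the block), and -0.0586 with the length trend removed (-0.0203 with the block), which takes out that trend by construction. The differences in region shares and in position kept their direction under every alternative run.

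Of the 112 named genes 103 passed, and all 103 also did under the replicate block, where 3 more passed, but 102, 103 and 103 lost significance in the unblocked fit without replicate 1, 2 or 3 (1, 0 and 0 in the blocked one), 58 to 98 without a single library 55 with the length trend removed (18 with the block) 11 without the filter on low counts and 3 with the highest-count transcript (Sst, Psmb1 and Unc13b, besides the reversed Alg5 and Psmd2), and 33 of the 66 that had distal segments kept their call there (60 with the block). These reversed: Alg5 (0.13 with the highest-count transcript, 0.13 with the block), Psmd2 (0.36 and 0.36, the latter called higher) and Dlg4 (0.0887 and 0.0859, and 0.0331 and 0.0245 with the length trend removed), Hlcs (-0.0334 and -0.0246 with the highest-count transcript, -0.17 and -0.17 with the length trend removed, -0.10 to 0.27 with a replicate or library left out, -0.0387 without replicate 2 with the block, -0.64 and -0.61 in distal segments), Mccc1 (-0.0324 to 0.49 with a replicate or library left out, -0.0227 without replicate 2 with the block) and Ndufv2 (0.31 and 0.31 in distal segments). For Alg5, Psmd2, Dlg4, Hlcs and Mccc1 the highest-count transcript has a longer CDS, although Mccc1 did not reverse there. The cause of the reversals was not tested. Depth limits genes of few counts such as Acacb.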
